A study of Homo sapiens with 4 samples.

Results

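MG-63 cells carrying a hairpin against the circular RNA hsa_circ_0000073 (sh-circ_0000073) were compared with MG-63 cells carrying the control hairpin (sh-NC) on expression arrays. The members are the 2 arrays labelled cell line MG-63, out of 4 arrays in the series, and the other 2 arrays carry the same pair of hairpins in Saos-2 cells. MG-63 and Saos-2 are both human osteosarcoma lines, and each condition of each line is 1 array of total RNA from transfected cells. There was therefore no replicate check of any difference, and every value below is the size of a difference between 1 pair of arrays. The sh-NC cells had also been transfected and received a hairpin, and no array of untouched MG-63 cells was analysed, so a difference cannot be placed on one array or the other. The sample titles write si-NC and si-hsa_circ_0000073 where the transfection field writes sh-NC and sh-circ_0000073.

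Values are log2 signals, in which a difference of 1 is a doubling of signal. Each gene was taken from 1 probe set with a single gene symbol, 33458 genes in all. The account keeps to the 11928 genes whose higher MG-63 signal was at least 6, and a gene is called higher or lower with sh-circ_0000073 where the signals differed more than 1.5-fold. By that rule 1801 genes (15.1%) were higher and 1406 (11.8%) were lower, with a median change of 0.05. The share of a gene list that changed is read against those percentages.

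Circular RNAs are made when a splice donor is joined back to an upstream acceptor, which leaves a closed RNA without ends. Some can bind microRNAs and so keep them from their messenger RNA targets, and a hairpin across the joining point can deplete the circle. The study asked about such a route in osteosarcoma cells, with miR-1252-5p as the microRNA and 2 candidate targets, CCNE2, the cyclin E2 that drives entry into S phase, and MDM2, the ubiquitin ligase that holds p53 low. MG-63 is a fibroblast-like line and has long been known as a source of interferon beta, the cytokine that makes cells express antiviral genes.

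The sequences listed for the study's 2 hairpins against the circle and for its control are shown because they define the comparison. The 17 bases shared by both circle sequences are in capitals. The array labels do not say which of the circle hairpins was used, and the study's text says that the first was taken forward.
sh-hsa_circ_0000073-1: GCUGCAAAGGGGCAUAAggaatt
sh-NC: uucuccgaacgugucacgutt
sh-hsa_circ_0000073-2: gcuuGCUGCAAAGGGGCAUAAtt
The listed circle sequences are 23 bases long and are shifted against each other along the same site. The listed sh-NC sequence is 21 bases long and shares no more than 3 bases in a row with the first. These are lengths of the listed sequences, which need not be those of whole hairpins. The microRNA of the study is hsa-miR-1252-5p, on chromosome 12 at chr12:79419261-79419282 (GRCh38.p14, plus strand, RefSeq), with its seed, bases 2 to 8, in capitals.
hsa-miR-1252-5p: aGAAGGAAauugaauucauuua
The probe set for its precursor, MIR1252, read 2.68 with sh-NC and 2.80 with sh-circ_0000073. Both signals were below the level of 6 used here. The circle itself was not analysed here, and depletion by the hairpin was not checked on these arrays.

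The 2 MG-63 arrays had nearly equal medians over all 135750 probe sets, 3.74 with sh-NC and 3.75 with sh-circ_0000073. Markers of mesenchymal cells were bright on both, with 9 of 11 measured markers at 6 or more, among them VIM at 18.60 and 18.58 and SPARC at 16.75 and 16.99. Of 6 osteoblast markers only RUNX2 passed that level, at 7.57 and 7.72, while the alkaline phosphatase gene ALPL read 3.89 and 3.97. PTPRC, PECAM1, CDH1 and EPCAM, which define leukocytes, endothelium and epithelium, stayed below 6 on both arrays. In each of those classes 1 other marker passed 6, CD14 at 8.05 and 8.54, EGFL7 at 6.90 and 7.21, and KRT19 at 6.73 and 7.61, which was more than 1.5-fold higher. The standard deviation of the change across genes was 0.59, and it lay between 0.52 and 0.63 in every signal range from 6 upwards.

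**Figure D1:**
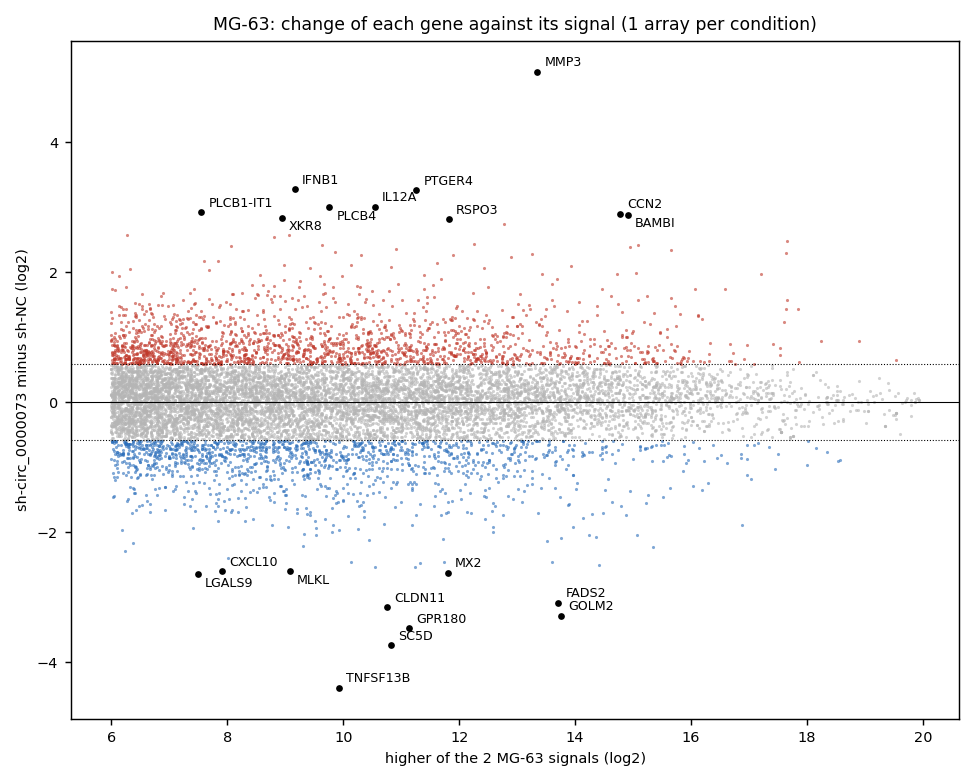
Change of each of 11928 genes in MG-63 cells (sh-circ_0000073 minus sh-NC, log2, vertical axis) against the higher of its 2 signals (log2, horizontal axis). Red points were more than 1.5-fold higher, blue points more than 1.5-fold lower, and the 10 largest changes each way are named in black. MMP3 stood furthest up at 5.09 and TNFSF13B furthest down at -4.39 on the probe set used, beside -2.58 as the mean of its probe sets.

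The 20 largest increases ranged from 5.09 to 2.39 on the log2 scale. MMP3, the matrix metalloproteinase stromelysin 1, read 8.26 with sh-NC and 13.35 with sh-circ_0000073, a 34.1-fold difference. MMP1, the interstitial collagenase, went from 5.66 to 8.07. MMP3 and MMP1 are neighbours in a cluster of metalloproteinase genes on chromosome 11, where RefSeq places MMP1 at chr11:102789919-102798160 and MMP3 at chr11:102835801-102843609 (GRCh38.p14). Their other neighbours in the cluster were dim on both arrays. MMP10, on one side of MMP1, read 3.94 on each array, and MMP12, on the other side of MMP3, read 4.63 and 4.56. MMP7, MMP8, MMP13, MMP20 and MMP27 also stayed below 6. Of the 18 metalloproteinase genes measured, 4 passed the level of 6, MMP1 only with sh-circ_0000073. The 2 others were MMP2, a gelatinase, at 18.43 and 18.31, and MMP14, a membrane-bound collagenase, at 12.84 and 12.52.

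Prostaglandin genes were higher at several steps of the pathway. PLA2G4A, the phospholipase that frees arachidonic acid, read 11.62 and 12.93, and PTGS2, the inducible cyclooxygenase that uses it, read 15.34 and 17.64. PTGES3, a prostaglandin E synthase and HSP90 partner, read 14.57 and 15.45. PTGER4, a receptor for prostaglandin E2, read 8.00 and 11.26, a 9.58-fold difference, whereas the related receptor PTGER2 read 6.02 and 5.87. In all, 4 of 8 genes of that list at 6 or more were higher and 0 were lower.

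The list of interleukins and cytokines had 5 of 10 genes higher and 0 lower. It also holds TNFAIP3, which is among the 5, and TNFAIP6, and neither is a cytokine. IL6, the interleukin that drives the acute phase response, read 12.66 and 15.08. KITLG, the ligand of the KIT receptor, read 8.55 and 10.91, and TSLP, an epithelial and stromal cytokine, read 8.51 and 10.29. TNFAIP3, a ubiquitin-editing inhibitor of NF-kappaB, was already bright with sh-NC at 15.23 and read 17.21 with sh-circ_0000073. IL12A, which encodes the p35 subunit of interleukin 12, went from 7.53 to 10.54. The increase did not extend to every inflammatory gene, since IL1B read 11.85 and 12.02 and CXCL8 read 10.53 and 10.32.

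Chemokines and the TNF superfamily split in both directions. CCL2 and CCL5, which attract monocytes and T cells, were higher by 1.29 and 1.27, and CXCL12 was higher by 0.77. CXCL10, an interferon-inducible chemokine, went from 7.91 to 5.31, and CXCL16 went from 6.53 to 4.95. TNFSF13B, the B cell survival factor BAFF, went from 9.92 to 5.53, the largest decrease by the probe sets used, but the mean over its probe sets was -2.58. EDA2R, a receptor of the same superfamily, was lower by 1.79 and TNFRSF11A, the RANK receptor of osteoclasts, by 1.57. TNFRSF11B, which encodes osteoprotegerin, the decoy that captures the ligand of RANK, was higher at 10.67 and 12.90. Over the superfamily, 5 of 13 genes were higher and 4 were lower.

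The promoters of IL6 and IFNB1 are shown because both genes were among the 20 largest increases and both windows hold a kappaB-type motif, spelled GGGANNTTCC and in capitals, which matches sites bound by NF-kappaB. The windows run from 250 bases before to 50 after a RefSeq start. IL6 is shown from chr7:22726950-22727249 (plus strand) and IFNB1 from chr9:21077893-21078192 (minus strand), both GRCh38.p14.
IL6: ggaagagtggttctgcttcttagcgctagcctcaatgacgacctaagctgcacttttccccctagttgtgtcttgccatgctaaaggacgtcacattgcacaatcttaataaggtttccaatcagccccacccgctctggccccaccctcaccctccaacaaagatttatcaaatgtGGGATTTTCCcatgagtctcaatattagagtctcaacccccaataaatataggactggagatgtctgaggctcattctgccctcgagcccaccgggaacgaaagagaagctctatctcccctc
IFNB1: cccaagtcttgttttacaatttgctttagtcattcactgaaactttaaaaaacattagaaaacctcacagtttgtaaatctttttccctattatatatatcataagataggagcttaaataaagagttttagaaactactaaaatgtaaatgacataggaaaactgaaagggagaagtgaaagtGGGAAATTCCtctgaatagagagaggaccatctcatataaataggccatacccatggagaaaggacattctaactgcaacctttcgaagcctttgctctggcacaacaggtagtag
Searched on both strands, the motif stood in the windows of 537 of 27305 genes (1.97%) and of 151 of the 7729 genes at 6 or more (1.95%). It stood in those of 27 of 1014 higher genes (2.66%) and of 28 of 1042 lower genes (2.69%). Of the 13 genes among the 20 largest increases that had a window, IFNB1, CCN2 and IL6 held it, and of 16 among the 20 largest decreases CXCL10 held it. A match to these letters is a description of the window and no measure of binding.

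CCN2, the matricellular protein also called connective tissue growth factor, read 11.87 and 14.77, and CCN1 of the same family read 14.44 and 15.80. Both are textbook targets of YAP and TEAD, the transcription factors held in check by the Hippo kinases. The wider list of YAP and TEAD targets did not follow, with 4 of 18 higher, 2 lower and a median of 0.07. NT5E, another listed target, was lower at 18.54 and 17.64. The window of CCN2 at chr6:131951323-131951622 (GRCh38.p14, minus strand) is shown because it holds 3 copies of the TEAD motif GGAATG, in capitals.
CCN2: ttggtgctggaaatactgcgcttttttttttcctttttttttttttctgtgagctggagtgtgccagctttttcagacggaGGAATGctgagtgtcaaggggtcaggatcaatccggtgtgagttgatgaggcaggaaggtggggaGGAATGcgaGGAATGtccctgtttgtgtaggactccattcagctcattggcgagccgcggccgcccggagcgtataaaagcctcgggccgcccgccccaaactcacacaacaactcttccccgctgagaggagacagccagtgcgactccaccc
On either strand GGAATG stood in the windows of 4567 of 27305 genes (16.7%) and of 1124 of the 7729 genes at 6 or more (14.5%). It stood in those of 168 of 1014 higher genes (16.6%) and of 150 of 1042 lower genes (14.4%).

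Wnt and BMP regulators were higher both as agonists and as inhibitors. RSPO3, a secreted enhancer of Wnt signalling, was higher by 2.82, and the Wnt receptors FZD7 and FZD4 were higher by 2.58 and 2.07. AXIN2, which Wnt signalling induces and which restrains it, read 8.67 and 9.99. The secreted Wnt antagonists DKK2 and WIF1 were also higher, by 1.59 and 0.81. FZD2 was the 1 lower gene among 23 Wnt genes, against 7 higher. On the BMP side BAMBI, a decoy receptor of the TGF-beta family, read 12.02 and 14.91. The BMP antagonists GREM1, FST and NOG were higher by 1.99, 1.07 and 0.78, and the ligand BMP2 went from 5.80 to 7.14. SMAD6, an inhibitory SMAD, was lower by 1.07, and in all 6 of 16 BMP genes were higher and 2 were lower. TGF-beta genes gave 5 higher and 3 lower of 15, with the receptor TGFBR1 higher by 1.01 and the receptor TGFBR2 lower by 0.89.

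Receptor tyrosine kinase ligands moved both ways. FGF genes had 3 of 7 higher and 2 lower, and the EGF receptor family and its ligands had 4 of 10 higher and 3 lower. FGF2 read 16.41 and 17.85, FGF7 read 12.06 and 13.49, and NRG1, a ligand of the ERBB receptors, read 11.78 and 13.60. FGF18 was lower at 10.23 and 8.71, and FGF9 by 0.66, and the ERBB ligands BTC and NRG4 were lower by 1.10 and 0.71. BDNF, the neurotrophin, read 9.92 and 11.20, and PGF, the placental growth factor, was lower at 11.72 and 9.62. NRP2, a co-receptor of semaphorins and VEGF, went from 3.69 to 6.27. The insulin receptor substrates IRS2 and IRS1 were higher by 1.75 and 1.35. DUSP4, SPRY2, DUSP10 and SPRY1, which dampen MAP kinase signalling, were higher by 2.18, 1.81, 1.32 and 1.10, while DUSP1 was lower by 0.72. The list of ERK feedback and output genes had 6 of 16 higher and 2 lower, but its median was -0.01. For IRS2 the mean over its probe sets gave a smaller difference, 1.17.

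Immediate early factors moved as a few single genes. KLF4 read 7.21 and 9.63, ATF3 read 10.36 and 12.43, MYC read 14.32 and 16.07, and KLF6 read 13.50 and 15.08. NR4A1 and IER2 were lower by 0.86 and 0.61, so that 5 of 18 were higher and 2 were lower. BCL6, a transcriptional repressor of lymphocytes and other cells, was among the 20 largest increases at 15.17 and 17.65. The AP-1 motif TGACTCA, searched on both strands, stood in the windows of 51 of 1014 higher genes (5.03%) and 52 of 1042 lower genes (4.99%), beside 360 of 7729 genes at 6 or more (4.66%).

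The remaining members of the 20 largest increases have varied roles. PLCB4, a phospholipase C of G protein signalling, read 6.76 and 9.76, and PLCB1-IT1, a noncoding transcript named for an intron of PLCB1, read 4.62 and 7.55. XKR8, a scramblase that exposes phosphatidylserine on dying cells, read 6.10 and 8.94. HAS2, the main hyaluronan synthase of stromal cells, read 10.03 and 12.77, and its relative HAS3 went from 5.32 to 6.69. SGK1, a kinase related to Akt, was higher by 2.39, and CYP1B1, a target of the aryl hydrocarbon receptor, by 2.43. The receptor AHR itself was higher by 0.90 and its partner ARNT by 0.86, and 4 of the 7 genes of that list were higher with 0 lower. SNORD51, a box C/D small nucleolar RNA, read 6.26 and 8.80.

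Interferon genes differed in direction. IFNB1, which encodes interferon beta, read 5.88 with sh-NC and 9.16 with sh-circ_0000073, or 9.71-fold. IFNA1 and IFNL1, other interferon genes, stayed below 6, at 3.88 and 4.25 and at 3.91 and 4.94. Genes that interferon induces were lower as a group. Of 53 interferon-stimulated effector genes at 6 or more, 40 were lower, 1 was higher and 12 were neither, with a median change of -1.02, beside 0.05 over all genes. The median of their signals was 13.87 with sh-NC and 12.49 with sh-circ_0000073. MX2, an antiviral GTPase, read 11.80 and 9.18, and SAMHD1, which depletes deoxynucleotides, read 15.35 and 13.13. USP18, which removes ISG15 from proteins and blocks the interferon receptor, read 13.52 and 11.39. The antiviral TRIM family genes TRIM14 and TRIM22 were lower by 2.11 and 2.07, and SAMD9L, a restriction factor, by 2.04.

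The exception was IFIT2, higher at 16.38 and 17.61. The 4 IFIT genes at 6 or more lie within 1 stretch of chromosome 10, between 89302046 and 89420997 (GRCh38.p14), and read from higher to lower along that stretch. IFIT2 changed by 1.23, IFIT3 by 0.51, IFIT1 by -0.11 and IFIT5 by -1.68. IFITM1, IFITM2 and IFITM3, membrane proteins that block virus entry, changed by less than 1.5-fold, and their near-identical sequences leave their probe sets uncertain. Guanylate-binding protein genes on chromosome 1 also differed, with GBP3 at -1.70, GBP2 at -0.80 and GBP1 at -0.03. GBP5 and GBP4, which were not in the list and were named after their values were seen, changed by -1.83 and -0.19.

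**Figure D2:**
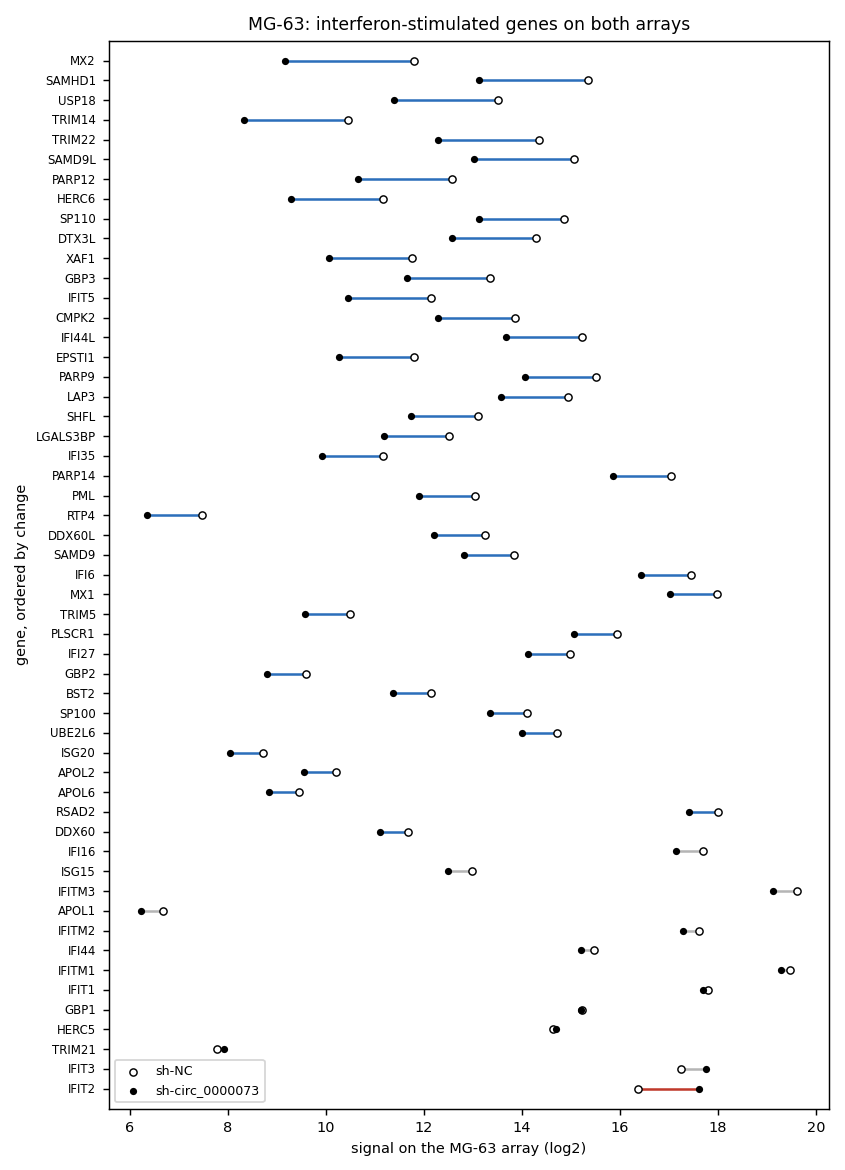
Signal (log2, horizontal axis) of the 53 interferon-stimulated effector genes on the 2 MG-63 arrays, with open circles for sh-NC and filled circles for sh-circ_0000073, ordered by change. Lines are blue for the 40 genes more than 1.5-fold lower, red for IFIT2, which was higher, and grey for the other 12.

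A list of double-stranded RNA sensors, which start the interferon response, and related genes had 8 of 15 lower, with a median of -0.62. The list also holds adaptors, the OAS enzymes and the DNA sensing genes CGAS and STING1. Not all sensors passed the threshold, and IFIH1 changed by -0.54. TLR3, the endosomal sensor, read 14.41 and 11.91, and RIGI, the cytosolic sensor of viral 5′ ends, read 13.65 and 12.68. EIF2AK2, the kinase PKR that stops translation, read 16.96 and 15.85. The oligoadenylate synthetases OAS1, OAS3 and OAS2, neighbours on chromosome 12, were lower by 1.29, 1.17 and 1.92. OASL, a relative without synthetase activity at a separate place on chromosome 12, was higher at 13.95 and 15.18. The adaptors STING1 and MYD88, of the DNA sensing and Toll-like receptor routes, were lower by 1.34 and 2.54. Among 12 genes of interferon itself, its receptors and its STAT and IRF factors, IFNB1 was the 1 higher gene, and IFNAR2, a receptor chain, and STAT3 were lower by 1.01 and 0.91.

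Genes of antigen presentation through MHC class I were lower in 6 of 17 cases, with 0 higher and a median of -0.46. PSMB9, a subunit of the immunoproteasome, read 16.19 and 14.84. TAP1 and TAP2, the peptide transporter, were lower by 1.12 and 0.88, and TAPBP, which bridges it to class I molecules, by 1.24. HLA-E read 9.38 and 8.45, and HLA probe sets can take signal from related HLA genes.

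The promoter windows of CXCL10, TLR3 and DTX3L are shown because the genes were lower and the windows hold the core of the interferon-stimulated response element, spelled GAAANNGAAA and in capitals on whichever strand it lies. CXCL10 is at chr4:76023448-76023747 (minus strand), TLR3 at chr4:186068906-186069205 (plus strand) and DTX3L at chr3:122564088-122564387 (plus strand), all GRCh38.p14.
CXCL10: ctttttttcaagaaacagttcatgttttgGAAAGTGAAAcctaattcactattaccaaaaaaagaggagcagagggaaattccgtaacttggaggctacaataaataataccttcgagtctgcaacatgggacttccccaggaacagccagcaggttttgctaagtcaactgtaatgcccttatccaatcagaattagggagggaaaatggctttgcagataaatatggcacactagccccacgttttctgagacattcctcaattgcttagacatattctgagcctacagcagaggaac
TLR3: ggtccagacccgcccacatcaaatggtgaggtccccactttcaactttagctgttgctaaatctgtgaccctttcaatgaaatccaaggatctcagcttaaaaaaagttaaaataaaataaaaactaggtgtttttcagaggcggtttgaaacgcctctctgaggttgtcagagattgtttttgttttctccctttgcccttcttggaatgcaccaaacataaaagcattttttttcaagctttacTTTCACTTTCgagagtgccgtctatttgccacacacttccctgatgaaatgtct
DTX3L: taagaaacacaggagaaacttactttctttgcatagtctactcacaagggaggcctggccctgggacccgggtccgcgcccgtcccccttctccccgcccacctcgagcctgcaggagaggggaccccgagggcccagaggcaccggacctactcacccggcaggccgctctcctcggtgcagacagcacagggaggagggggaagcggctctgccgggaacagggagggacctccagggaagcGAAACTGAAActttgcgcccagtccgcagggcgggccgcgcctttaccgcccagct
Searched on both strands, with a gene counted once if any of its windows matched, the core stood in 1195 of 27305 genes (4.38%) and in 336 of the 7729 genes at 6 or more (4.35%). It stood in 82 of 1042 lower genes (7.87%) and in 36 of 1014 higher genes (3.55%). Among the 20 largest decreases 6 of the 16 with a window held the core. Among the 20 largest increases 3 of 13 did, IL12A, RSPO3 and SGK1. Within the effector list 24 of 33 lower genes with a window held it, and so did 9 of the 10 others. The CXCL10 window also holds a kappaB-type motif, away from the capitals.

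DTX3L, a ubiquitin ligase, and PARP9, its ADP-ribosyltransferase partner, start head to head on chromosome 3, with windows that share 137 bases. They changed alike, by -1.71 and -1.45. PSMB9 and TAP1 start head to head on chromosome 6 with 13 shared bases and changed by -1.35 and -1.12. RSAD2, which makes an antiviral nucleotide, and CMPK2, its neighbour on chromosome 2, share 165 bases and changed less alike, by -0.60 and -1.58.

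Sterol synthesis genes were lower, from early to late steps. Of 16 cholesterol synthesis enzymes 10 were lower and 0 were higher, with a median of -0.74. Early in the route MVK, mevalonate kinase, went from 6.28 to 5.29, IDI1, the isopentenyl diphosphate isomerase, read 12.84 and 11.40, and FDPS was lower by 0.63. SQLE, the squalene epoxidase, read 13.66 and 12.34, and MSMO1 was lower by 0.87. At the last steps DHCR7 read 10.89 and 9.28, and SC5D, the sterol desaturase just before it, read 10.82 and 7.08. A separate list of fatty acid synthesis and sterol control genes had 5 of 20 lower and 2 higher, with a median of -0.15. In that list STARD4, a sterol carrier, was lower by 1.59, while ABCA1, which exports cholesterol, was higher by 0.91. FADS2, the desaturase that starts the synthesis of long polyunsaturated fatty acids, read 13.71 and 10.63, beside 8.49 and 8.24 for its neighbour FADS3. The sterol response letters TCACNCCAC, searched on both strands, stood in the windows of 0 of 14 of the enzymes and of 379 of 27305 genes (1.39%). At so low a share 14 windows would mostly hold no match, so the 0 does not show that the enzymes lack such sites.

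Matrix and adhesion lists differed in how many of their genes were higher. Collagen genes were higher in 5 of 10 cases with 0 lower, led by COL5A2 at 11.38 and 13.05 and COL5A1 at 8.28 and 9.14, the chains of fibril-regulating collagen V. COL1A2 was higher by 0.62, whereas COL1A1, the other chain of collagen I, read 10.03 on both arrays. Quantile normalization put COL1A2 and COL8A1, another of the 5, at 0.555, under the threshold. The median was 0.465 over the 10 collagen genes and 0.09 over all 25 measured. Of 17 collagen modifying enzymes 0 were higher and 1 was lower. Matrix glycoproteins split, with 9 of 32 higher and 5 lower. LAMA4, a laminin chain, read 8.22 and 9.83, SDC4, a membrane proteoglycan, read 13.41 and 14.80, and POSTN, periostin, read 14.78 and 16.11. ECM1 and CSPG4 were lower by 1.42 and 1.37. Among 20 integrin and focal adhesion genes 6 were higher and 1, ITGA11, was lower. ITGB8, which activates latent TGF-beta, read 9.43 and 11.39, and ITGA2, a collagen receptor chain, read 10.15 and 11.41. Actomyosin and SRF targets were higher in 6 of 22 cases with 0 lower, among them TPM4 by 1.43 and ACTB by 1.23. Cadherins and claudins had 4 of 16 higher and 3 lower. CLDN11, a tight junction claudin, was among the largest decreases at 10.76 and 7.61. PTK2, MYH9 and SRF were called higher from 1 probe set, but the mean over their probe sets was 0.45, 0.19 and 0.25.

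Cell cycle genes moved as single genes more than as groups. CCNE2 read 9.05 and 7.14 and its paralog CCNE1 moved the other way, from 5.04 to 6.05. CCNA2, cyclin A2, was higher at 12.87 and 14.06, CDK6 by 1.08 and TFDP1, a partner of E2F factors, by 1.02, while CDK4 was lower by 0.66. Replication genes gave 6 higher and 6 lower of 47. RRM2, a ribonucleotide reductase subunit, read 9.12 and 10.94, and GINS1 and DBF4, needed to fire origins, were lower by 1.41 and 1.36. Of 74 mitotic genes 15 were lower and 7 were higher, with a median of -0.18. PTTG1, securin, and MIS12, a kinetochore protein, were lower by 1.69 and 1.26, and MYBL2 and KIF18A were higher by 1.16 and 1.00. The mean over its probe sets left DBF4 at -0.10 and RRM2 at 0.99.

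MDM2 read 12.06 and 11.36, a decrease of 0.70. The list of p53 and its targets, which includes MDM2, did not share one direction, with 4 of 21 higher and 4 lower. PMAIP1, the BH3-only protein NOXA, read 13.31 and 15.65, and AEN, an apoptosis nuclease, was higher by 1.90, while ZMAT3 and TP53INP1 were lower by 0.82 and 0.73. The BCL2 family had 3 of 12 higher, PMAIP1, HRK and BCL2L1, and 0 lower. Among genes of cell death MLKL, the effector of necroptosis, read 9.08 and 6.48, CASP1 went from 6.62 to 5.10, and BIRC2, an inhibitor of apoptosis, read 11.57 and 9.97. The study's 16 cancer-pathway genes include CCNE2, MDM2, BIRC2 and PGF, and 14 of them were at 6 or more and all 14 were lower, but the study had chosen them on these arrays, so their count is no independent evidence of a direction.

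Secretory and stress lists differed from each other. Of 36 genes of folding and quality control in the endoplasmic reticulum 10 were lower and 1 was higher, with a median of -0.33. EDEM1, which sends misfolded glycoproteins to degradation, read 10.34 and 8.81, or -0.80 as a mean of probe sets, ERO1B read 9.34 and 7.90, and EIF2AK3, the stress kinase PERK, read 9.87 and 8.85. The list of ATF4 and amino acid stress genes had 6 of 26 lower and 1 higher. WARS1 was lower by 1.24 and the serine synthesis enzymes PHGDH and PSAT1 by 0.92 and 0.84. CEBPB was the higher one, at 7.82 and 8.99. WARS1 is also an interferon-inducible gene. Heat shock genes had 5 of 23 higher and 1 lower, with the mitochondrial chaperonin HSPD1 higher by 1.11.

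Lysosome and autophagy genes were lower in shares near that over all genes. Of 39 lysosome genes 5 were lower and 3 were higher. CTSS, the cathepsin of antigen processing, read 11.23 and 8.69, and LIPA, which hydrolyses lysosomal cholesterol esters, read 14.79 and 13.20. Of 36 autophagy genes 5 were lower and 4 were higher. ATG3 and ATG7, the enzymes that attach LC3 to lipid, were lower by 2.04 and 1.06. PSMB5, a catalytic subunit of the constitutive proteasome, read 9.53 and 7.59, against 2 lower and 2 higher of 28 proteasome genes. In redox defence GSR, glutathione reductase, was lower by 1.87, and PRDX4 and SOD2 were higher by 1.74 and 1.18. For LIPA the mean over probe sets gave a decrease of 0.93.

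MicroRNA pathway genes were examined because the study works through a microRNA. Of 17 genes at 6 or more 3 were lower and 1 was higher. MOV10, an RNA helicase bound to Argonaute proteins and itself interferon-inducible, read 9.53 and 7.49. TNRC6B and TNRC6C, the GW182 scaffolds of silencing, were lower by 1.22 and 1.10, the first by 0.67 as a mean of probe sets. TUT4, which adds uridines to microRNA precursors, was higher by 0.87.

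**Figure D3:**
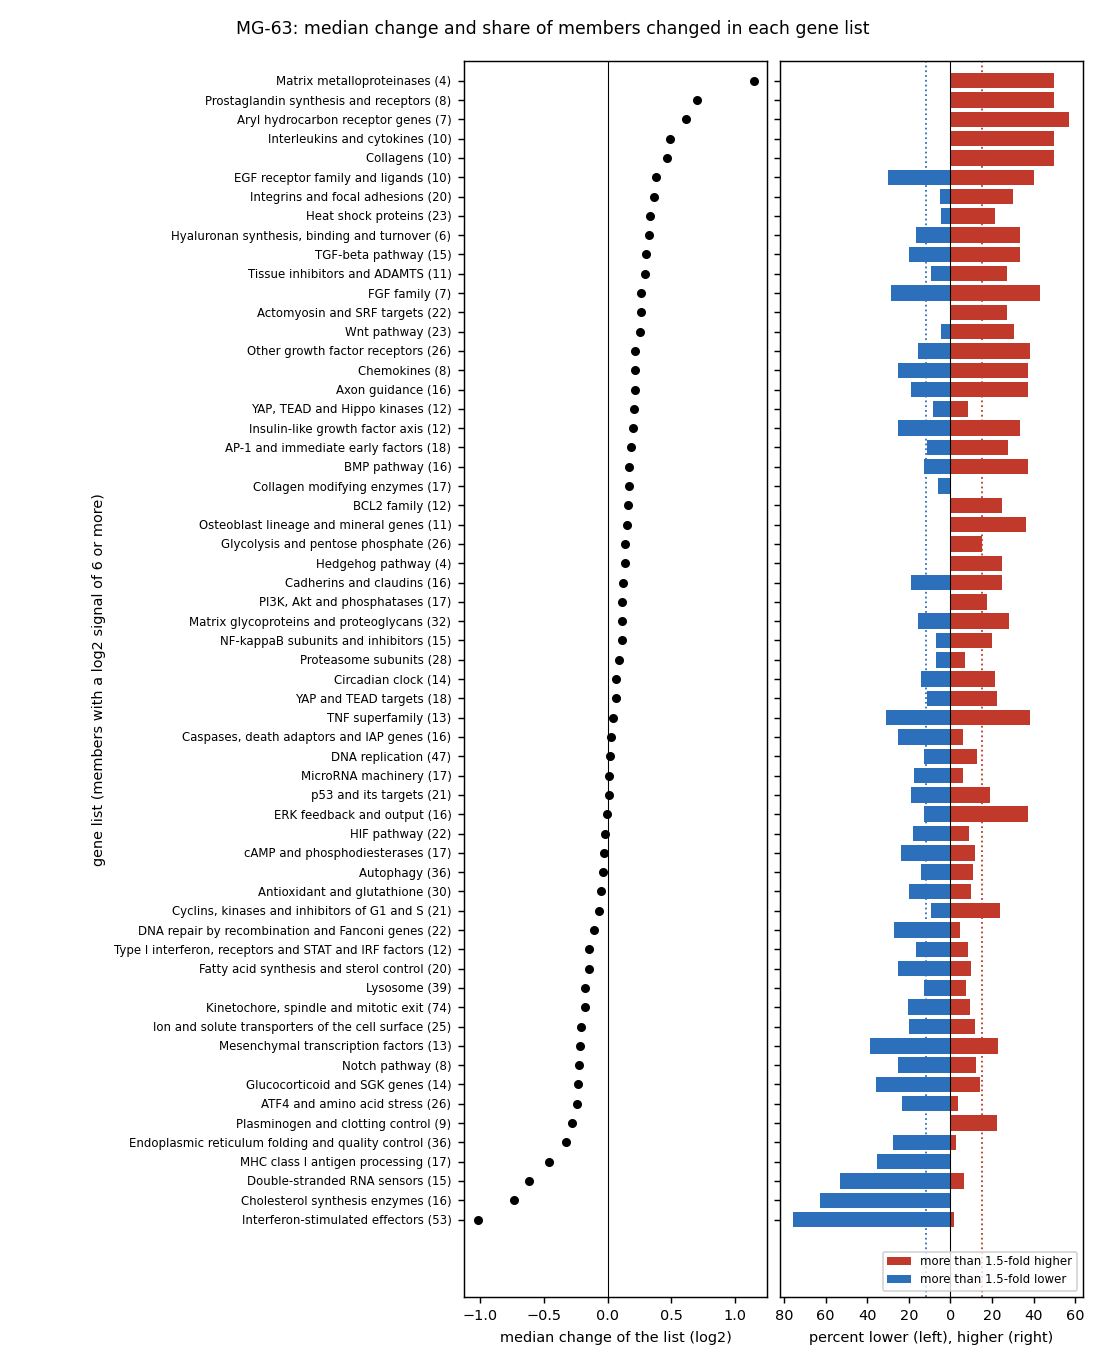
Median change (log2, left panel) and share of members more than 1.5-fold lower (blue) or higher (red, right panel) for 60 gene lists in MG-63 cells, with the number of members at 6 or more in brackets. Dotted lines mark the shares over all 11928 genes, 11.8% lower and 15.1% higher. The interferon-stimulated effectors lie lowest at -1.02 and the 4 metalloproteinases highest. Of those 4, MMP1 reached 6 only with sh-circ_0000073, and over all 18 measured metalloproteinase genes the median was 0.10.

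In the values as deposited, the surplus of higher over lower genes lay in pseudogenes. Over 8893 protein-coding genes 1214 (13.7%) were higher and 1213 (13.6%) were lower, with a median of 0.01, and quantile normalization gave 1071 and 1358. Over 2071 pseudogenes 485 (23.4%) were higher and 87 (4.2%) were lower, with a median of 0.24, or 0.20 after quantile normalization. Of 338 pseudogenes of ribosomal proteins 114 were higher and 6 were lower, while 3 of 55 protein-coding ribosomal protein genes were higher and 1 was lower. Pseudogenes of HNRNP splicing proteins were higher in 36 of 60 cases with 1 lower, of NPM1 in 13 of 24 with 0 lower, and of GAPDH in 9 of 18 with 0 lower. Among copies of noncoding RNAs, U6 pseudogenes had 51 of 321 higher and 18 lower, and 7SL and 7SK pseudogenes had 34 of 263 higher and 2 lower. Pseudogenes of 5S ribosomal RNA went the other way, with 4 of 98 higher and 11 lower.

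Names tied 942 of these pseudogenes to a protein-coding parent at 6 or more. The pseudogenes had a median change of 0.36 and their parents, counted once per pair, of 0.15. Of 312 higher pseudogenes in those pairs the parent was also higher in 91 and neither higher nor lower in the other 221. The parents were bright, with a median of 15.75 per pair for the higher signal, against 8.26 for the pseudogenes. A pseudogene and its parent share much of their sequence, so signals of the copies may include parent RNA, and the part this played was not tested.

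Other RNA classes were small. Of 324 long noncoding RNA genes 29 were higher and 53 were lower, among them NORAD at 13.17 and 11.90 and LUCAT1 at 9.89 and 8.49. Of 163 microRNA precursors 24 were higher and 8 were lower. MIR31 went from 5.30 to 6.80 and MIR221 from 7.09 to 8.14, while MIR100 went from 6.09 to 5.19. Of 104 small nucleolar RNAs 19 were higher and 6 were lower. The named RNAs of these classes were chosen after their values were seen, and probe sets for precursors do not measure the mature microRNA.

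**Figure D4:**
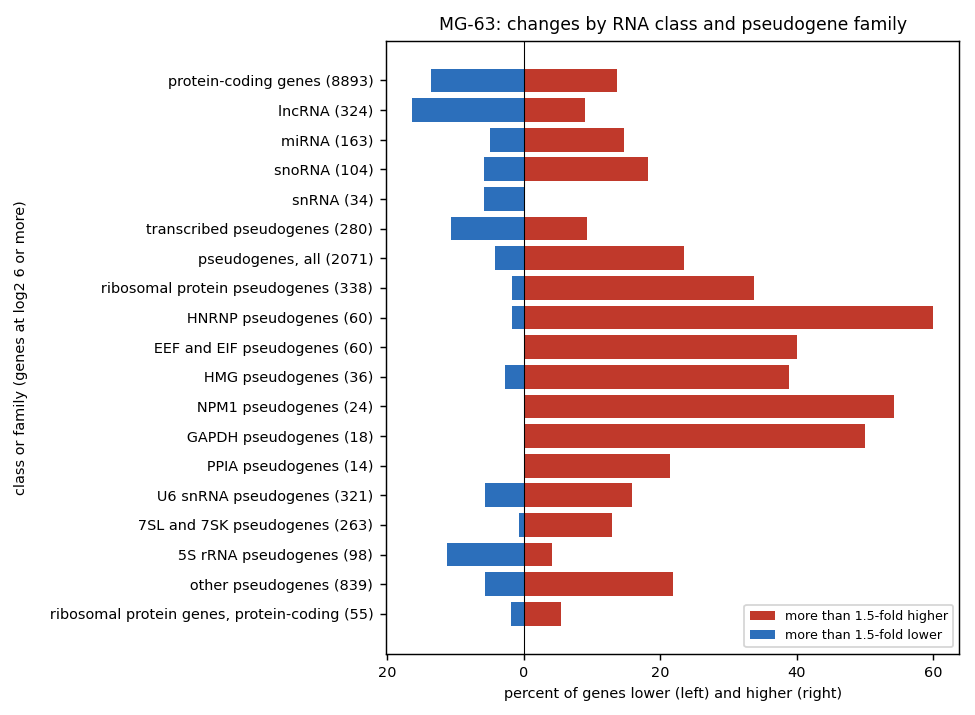
Percent of genes more than 1.5-fold lower (blue, left) or higher (red, right) in MG-63 cells by RNA class and, indented, by pseudogene family, with protein-coding ribosomal protein genes last and the number of genes at 6 or more in brackets. Protein-coding genes stood at 13.6% lower and 13.7% higher as deposited, and HNRNP pseudogenes had the largest higher share, 36 of 60.

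Saos-2 cells gave the same comparison in a second line. Over the 10500 genes at 6 or more in both lines, the MG-63 arrays had 14.2% higher and 11% lower, and the Saos-2 arrays had 15.9% higher and 7.93% lower. The genes higher in both numbered 443, 29.7% of those higher in MG-63 and 26.5% of those higher in Saos-2. There were 303 lower in both, 26.2% and 36.4% of the respective lower genes, and 63 and 98 genes moved past 1.5-fold in opposite directions. Across these genes Pearson's r between the changes was 0.32 and Spearman's rho was 0.27, given as a description because genes are not independent replicates and the lines share the probe sets.

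The largest MG-63 decreases were more often shared than the largest increases. Of the 20 largest decreases 9 were also lower in Saos-2 and 0 were higher. GPR180, a membrane protein, read 11.14 and 7.67 on the MG-63 arrays, and its Saos-2 signals were 11.05 and 8.83. GOLM2, a Golgi membrane protein, changed by -3.28 and -2.75, SNRPC, a component of the U1 splicing particle, by -2.47 and -2.02, and ZDHHC20, a palmitoyltransferase, by -2.46 and -1.88. COMMD6 changed by -2.45 in MG-63 and by -3.98 in Saos-2. Those not shared included PRKD2, a protein kinase D, SPX, the hormone spexin, SYT17 and LGALS9, galectin 9, which read below 6 in Saos-2 on both arrays, as did 8 of the 20. Of the 20 largest increases 4 were also higher in Saos-2, PTGER4, NRP2, CYP1B1 and SGK1, and 2 were lower there, BAMBI and XKR8. In Saos-2 both signals were below 6 for 9 of the 20 increases, MMP3, IFNB1, IL12A, IL6 and XKR8 among them.

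**Figure D5:**
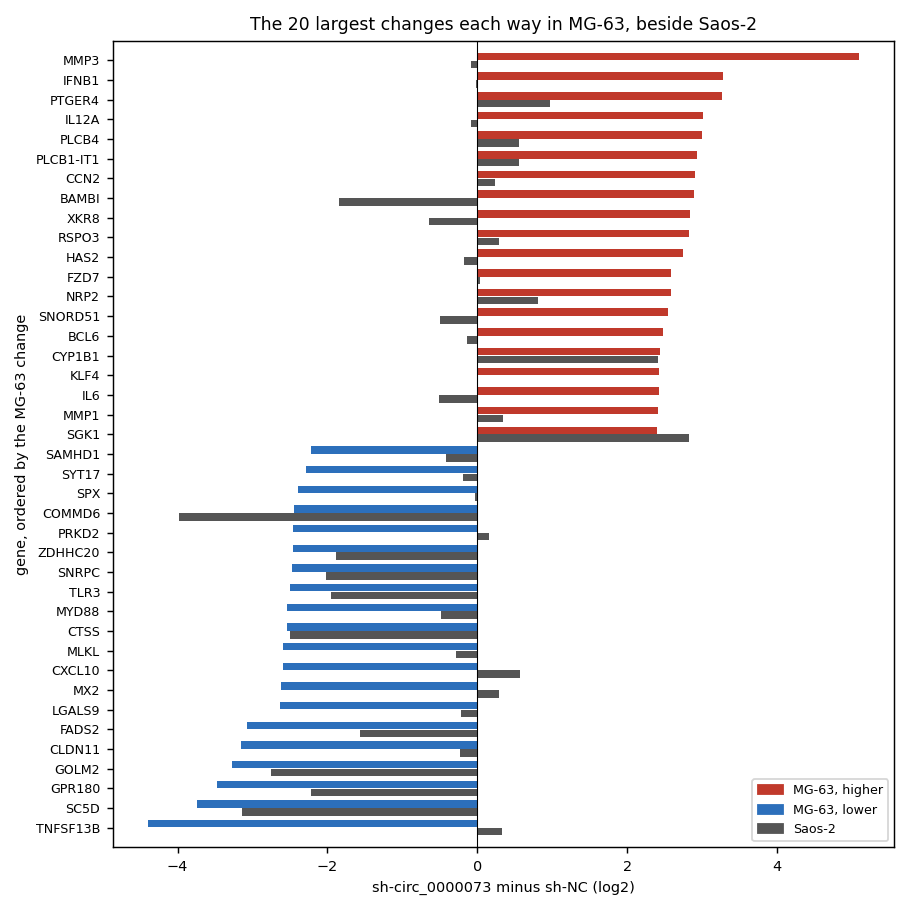
Change (sh-circ_0000073 minus sh-NC, log2) of the 20 largest increases and 20 largest decreases in MG-63 cells (red and blue bars) with the change of the same gene in Saos-2 cells (grey bars). Of the decreases 9, and of the increases 4, passed 1.5-fold the same way in Saos-2, and BAMBI turned from 2.89 to -1.85.

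The interferon and sterol lists differed between the lines in level as well as in change. The interferon-stimulated effectors had 38 genes at 6 or more in Saos-2, with a median sh-NC signal of 10.71 there, and 18 of them were lower and 1 was higher, with a median of -0.55. IFIT2 was lower in Saos-2 by 1.25, where it was higher in MG-63. For cholesterol synthesis the Saos-2 median was 0.15, with 1 of 16 lower and 0 higher, and that gene was SC5D at -3.14. ATF4 and amino acid stress genes had a median of 0.73 in Saos-2, with 14 of 23 higher, against -0.25 in MG-63. Mitotic genes were lower in 32 of 74 cases in Saos-2. These differences between lines were not tested, because each line has 1 array per condition.

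Agreement between probe sets of the same gene gives the only internal yardstick. Over 393 genes with 2 or more probe sets at 6 or more, the range of the change between probe sets had a median of 0.42. Of 83 called genes among them, all probe sets had the same sign in 56. The 1.5-fold threshold, 0.58 on the log2 scale, lies not far above that median and below the 90th percentile of the range, 1.16. Among the 40 largest changes only TNFSF13B had more than 1 probe set, so the range could not be read for the others. Probe sets on the same pair of arrays also do not measure variation between arrays or transfections.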

How the data were processed

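The deposited table holds log2 signals, 1 per probe set and array, which the authors made from arrays prepared with the GeneChip WT Pico Reagent Kit. The submitters' processing notes name Affymetrix Expression Console. The sources used here give neither its version nor the background correction, normalization or genome build. Since medians were nearly equal between arrays, the values were used as deposited. All 4 columns were mapped to samples by title, and 0 columns were left unused.

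Of 135750 probe sets, 36176 had 1 gene symbol, 1119 had several and 98455 had none in the platform annotation. Symbols were updated through RefSeq (GRCh38.p14) for 623 probe sets. For a gene with several probe sets, the one with the highest mean over the 4 arrays was used. The change is sh-circ_0000073 minus sh-NC in log2 signal. Genes whose higher MG-63 signal was at least 6 were kept, and more than 1.5-fold was called. With 1 array per condition no statistical test was run. The number of arrays limits the precision.

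The members, the 61 gene lists and the alternatives were chosen with earlier results of these data known. Genes were named by rule: the 20 largest changes each way, up to 5 members of each list past 1.5-fold with the largest change, the cell type markers, CCNE2, MDM2 and the precursor of miR-1252. Other genes were named as neighbours, pathway members or examples after their values were seen. Alternatives were the level (4, 8 or none), a 2-fold threshold, centring, quantile normalization and other rules for probe sets. Counts by RNA class were added after seeing the data. Promoter windows (250 bases before to 50 after a start) came from RefSeq, for 27305 genes, and motifs were searched on both strands. The counting was tested on simulated data. Scripts in Python 3.11.15 used numpy 2.4.6 and pandas 2.3.3.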

Additional observations from a re-analysis of the deposited data

Results flagged for a closer look

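Of 213 named genes at 6 or more in both lines, 18 moved more than 1.5-fold in opposite directions in MG-63 and Saos-2 cells. Many of the 213 were named for a large change in MG-63, and over all 10500 genes at 6 or more in both lines 63 were higher in MG-63 and lower in Saos-2 and 98 the reverse. The values are log2 differences, sh-circ_0000073 minus sh-NC, and the gap is the MG-63 difference minus the Saos-2 difference. Each line has 1 array per condition, so none of these differences was tested. Of the 18, 11 were higher in MG-63 and lower in Saos-2. BAMBI, a decoy receptor of the TGF-beta family, showed 2.89 in MG-63 against -1.85 in Saos-2, a gap of 4.74. For IRS2, an insulin receptor substrate, the changes were 1.75 and -1.12, and the gap was 2.87. BDNF, a neurotrophin, showed 1.28 in MG-63 against -1.56 in Saos-2, a gap of 2.84. For CDH8, a cadherin, the changes were 1.11 and -1.59, and the gap was 2.70. TNFAIP3, an inhibitor of NF-kappaB, showed 1.98 in MG-63 against -0.65 in Saos-2, a gap of 2.63. For CHEK2, a DNA damage kinase, the changes were 1.31 and -1.23, and the gap was 2.54. PDE5A, a phosphodiesterase of cyclic GMP, showed 1.30 in MG-63 against -1.07 in Saos-2, a gap of 2.37. For RUNX3, a transcription factor, the changes were 0.65 and -1.50, and the gap was 2.15. ITGA4, an integrin chain, showed 1.14 in MG-63 against -0.83 in Saos-2, a gap of 1.97. For FST, an antagonist of activin and BMP, the changes were 1.07 and -0.64, and the gap was 1.71. FJX1, a secreted kinase-like protein, showed 0.70 in MG-63 against -0.62 in Saos-2, a gap of 1.32.

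The other 7 were lower in MG-63 and higher in Saos-2. PDE1C, a phosphodiesterase, showed -1.44 in MG-63 against 1.31 in Saos-2, a gap of -2.75. For LTBP3, a binding protein of latent TGF-beta, the changes were -1.13 and 1.37, and the gap was -2.50. BHLHE41, a repressor of the circadian clock, showed -1.73 in MG-63 against 0.59 in Saos-2, a gap of -2.32. For MAML2, a Notch co-activator, the changes were -0.73 and 1.16, and the gap was -1.89. GPX3, a secreted glutathione peroxidase, showed -1.19 in MG-63 against 0.59 in Saos-2, a gap of -1.78. For TAP2, a peptide transporter chain, the changes were -0.88 and 0.77, and the gap was -1.65. PSAT1, a serine synthesis enzyme, showed -0.84 in MG-63 against 0.73 in Saos-2, a gap of -1.57.

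Probe sets without a gene symbol were not used in the report. At 6 or more in MG-63 there were 12028 of them, of which 1995 (16.6%) were more than 1.5-fold higher and 1139 (9.47%) lower, with a median change of 0.12. They carry signal that this account leaves undescribed.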

How the results depend on the processing

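With 1 array per condition no replicate could be left out. No paired analysis was possible because each group has 1 array. Of the 1801 higher and 1406 lower genes, a 2-fold threshold left 532 and 440. A level of 4 gave 2771 and 2182, no level minimum gave 3007 and 2398, and counting every probe set, named or not, gave 3953 and 2683. A level of 8 gave 1200 higher genes. Quantile normalization gave 1592 higher and 1584 lower genes, so that 50.1% of called genes were higher in place of 56.2%, and centring gave 1707 and 1478. Over protein-coding genes alone, the 2-fold threshold left 360 higher and 390 lower, quantile normalization gave 1071 and 1358, and centring gave 1145 and 1270. For pseudogenes the 2-fold threshold left 140 and 13, while a level of 4 gave 923 and 313, a level of 8 gave 245 and 31, and no minimum gave 1023 and 410. With members below 6 included, the median of the metalloproteinase list went from 1.15 to 0.10 and that of the prostaglandin list from 0.70 to 0.18, so both rest on the few expressed members. The other list medians moved by less than 0.42. Centring or quantile normalization turned the sign of small medians in the lists of caspases, DNA replication, microRNA machinery, p53 targets and the TNF superfamily, which were at most 0.04 in size. Of 1090 values of 273 named genes under 4 of these settings, 1065 kept their side of the 1.5-fold threshold and 0 reversed. The cause of these differences was not tested beyond the number of genes each setting counts. Signals below 6 limit what these arrays show of dim genes.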

Other observations

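Some gene groups outside the main account also held large single changes in MG-63. Among 16 axon guidance genes 6 were higher and 3 were lower, with SEMA3C, a secreted semaphorin, at 12.03 and 13.60, and PLXNA1, a semaphorin receptor, at 9.37 and 10.43. Among 14 clock genes 3 were higher and 2 were lower. CRY1, a repressor of the clock, went from 7.04 to 8.69, and BHLHE41, another repressor, from 12.75 to 11.02. Of 17 genes of cyclic AMP signalling and phosphodiesterases 4 were lower and 2 were higher, with PDE8B lower by 1.48 and PKIG, an inhibitor of protein kinase A, higher at 11.71 and 13.21.

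Transporters of the cell surface were lower in 5 of 25 cases and higher in 3. KCNK1, a potassium channel, read 7.78 and 6.11, and SLC6A9, a glycine transporter, read 10.45 and 9.17, while SLC4A4, a bicarbonate transporter, was higher by 1.20. Mesenchymal transcription factors had 5 of 13 lower and 3 higher. MEIS2, TWIST2 and SNAI1 were lower by 1.35, 1.15 and 1.09, and TBX3 was higher by 1.22. Of 26 glycolysis and pentose phosphate genes 4 were higher and 0 were lower, led by ENO2, the neuronal enolase, at 6.26 and 7.59.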
